A study of Rattus norvegicus with 3 samples.

Results

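Crowded dual-mark peaks are places where peaks of H3K4me3 and H3K9me3 lie on each other in stretches of the genome with an unusual number of H3K4me3 peaks. They were mapped by chromatin immunoprecipitation and sequencing in round spermatids from the testis of untreated Sprague-Dawley rats. The peaks were selected on measured values of these same lists, namely their overlap and their crowding. A peak of the H3K4me3 list was taken when it shared at least 1 bp with a peak of the H3K9me3 list and its midpoint lay in a 1-Mb window with 15 or more H3K4me3 midpoints. Chromosomes 1, 7 and 9, the sex chromosomes and unplaced sequences were left out. The rule found 866 peaks of the 7684 in the H3K4me3 list, or 11.3% of the 7642 on chromosomes. The study had 3 groups of 1 library each, an H3K4me3 precipitate (mouse antibody), an H3K9me3 precipitate (rabbit antibody) and a library without antibody, all read as paired ends of 75 bp. The sources used here give neither the age nor the number of the rats. The purity of the spermatids was not tested.

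H3K4me3, trimethylation of lysine 4 of histone H3, is typical of the promoters of active genes. H3K9me3, trimethylation of lysine 9, is typical of heterochromatin, where it is bound by HP1 proteins and keeps repeats and some gene clusters silent. Round spermatids are haploid cells that have left meiosis, still transcribe many genes, and have not yet exchanged their histones for protamines. The assay averages over a population of cells, so both marks on the same nucleosomes and each mark in different cells cannot be told apart.

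Each peak carries a score from the authors whose scale no header states. The lowest score was 30 in both lists, and scores are used here only to describe and rank peaks within their own list. A score of exactly 3100 recurred in 20 H3K4me3 and 100 H3K9me3 peaks, so peaks at that value are tied and a pair at 3100 in both lists is not shown to be equal. Each mark rests on 1 library of unknown depth, so values have no replicate error and no test between classes was made. Intervals of shares are Wilson intervals (95%), which reflect counting error alone and take each peak as a separate observation. The naming of both lists pairs the mark with the word used for the library without antibody. It is read here as the control, which the labels do not state, and its part in the overlaps was not tested. The word could also mean peaks called with precipitate and control exchanged. Every peak described here would then mark an excess of the control over that precipitate, and no value would describe enrichment of a mark. The lists do not settle which reading holds.

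Among H3K4me3 peaks of the 17 chromosomes of the rule, overlap with H3K9me3 was more frequent in crowded windows than in the other windows. The other windows were not uniform, and the share was 49.5% of 329 peaks in those with 10 to 14 midpoints. On the 17 chromosomes of the rule, 40 windows held 15 or more H3K4me3 midpoints. Of their 1050 H3K4me3 peaks, 866 lay on H3K9me3 (82.5%, 80.1 to 84.7%), while in all other windows of these chromosomes 587 of 4419 did (13.3%, 12.3 to 14.3%). The share over all H3K4me3 peaks of these chromosomes was 26.6%, and it was 31.9% over all chromosomes. The crowded peaks thus made up 59.6% of the 1453 dual-mark peaks of these chromosomes, in windows that span 1.89% of their length.

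**Figure D1:**
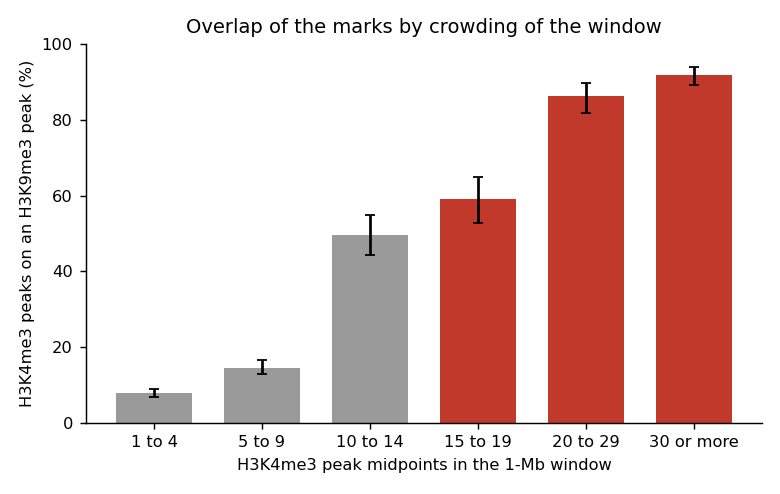
Share of H3K4me3 peaks that lie on an H3K9me3 peak (y axis, percent) by the number of H3K4me3 midpoints in their 1-Mb window (x axis), on the 17 chromosomes of the rule. Bars are shares, error bars are Wilson 95% intervals for counting error, and red bars mark the windows of the rule. The share was 7.90% in windows with 1 to 4 midpoints, 49.5% with 10 to 14 and 91.8% with 30 or more.

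The share rose in steps with crowding, also below the threshold of the rule. It was 7.90% of 2582 peaks in windows with 1 to 4 midpoints and 14.6% (12.9 to 16.5%) of 1508 peaks with 5 to 9. It was 49.5% (44.2 to 54.9%) of 329 peaks with 10 to 14 midpoints. Within the rule it was 59.0% (52.8 to 65.0%) of 249 peaks with 15 to 19, 86.2% (81.8 to 89.7%) of 290 with 20 to 29 and 91.8% (89.1 to 93.9%) of 511 with 30 or more. Single windows near the threshold were of either kind. The 3 windows with 15 midpoints had 0, 10 and 7 peaks on H3K9me3, and the 3 windows with 14 had 0, 4 and 0. The 4 windows with 13 had 13, 0, 11 and 12.

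The 866 peaks lay in 39 windows on 13 chromosomes. Chromosomes 4, 10, 11 and 18 had none, and of these only chromosome 10 had a crowded window, from 56 to 57 Mb, with 15 H3K4me3 peaks of which 0 lay on H3K9me3. Chromosome 2 held most, 157 peaks or 18.1%, followed by chromosome 16 with 120, chromosome 14 with 107, chromosome 19 with 96 and chromosome 17 with 95. Chromosome 3 held 66, chromosome 15 held 57, chromosome 13 held 48, chromosome 12 held 43 and chromosome 6 held 38. Chromosomes 20, 8 and 5 held 15, 13 and 11. Measured against all H3K4me3 peaks of a chromosome the order differed. Crowded dual-mark peaks were 37.8% of the H3K4me3 peaks of chromosome 19 and 36.3% of those of chromosome 16, and 3.57% and 2.88% on chromosomes 8 and 5.

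Neighbouring windows were joined, which gave 33 clusters. They are named here by chromosome and, where a chromosome has several, by a letter in order along it. The 18 clusters with 20 or more peaks held 693 of the 866 peaks, and the other 15 held 173. The largest was 16b, from 21 to 23 Mb of chromosome 16, with 73 dual-mark peaks. It was followed by 19b (26 to 29 Mb of chromosome 19) with 70, 2d (194 to 196 Mb of chromosome 2) with 60, the cluster at 5 to 6 Mb of chromosome 15 with 57 and 2a (0 to 2 Mb of chromosome 2) with 55. Then came 14a (21 to 23 Mb) with 44, 14c (94 to 95 Mb) with 42, 13a (33 to 34 Mb) with 35, and 2c (156 to 157 Mb) and 3b (143 to 144 Mb) with 32 each. The remaining large clusters were 12a (0 to 1 Mb) with 27, 19a (0 to 1 Mb) with 26, 3c (173 to 174 Mb) and 17e (89 to 90 Mb) with 25 each, 17b (44 to 45 Mb) and 17c (47 to 48 Mb) with 24 each, and 14b (46 to 47 Mb) and 16d (31 to 32 Mb) with 21 each.

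**Figure D2:**
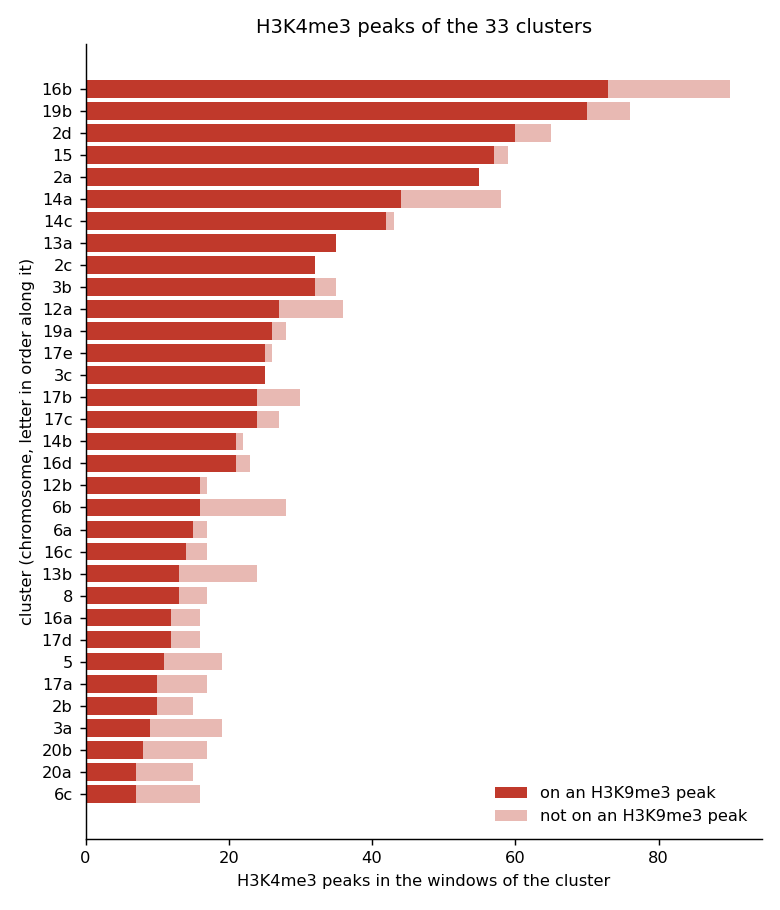
H3K4me3 peaks (x axis, number) in the windows of each of the 33 clusters (y axis), split into peaks on an H3K9me3 peak (dark) and not on one (light). Cluster 16b leads with 73 of 90 on H3K9me3, clusters 2a, 13a, 2c and 3c have no light part, and in 6c 7 of 16 lie on H3K9me3.

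In 4 clusters, 2a, 2c, 3c and 13a, every H3K4me3 peak lay on H3K9me3, with 55, 32, 25 and 35 peaks. In 18 of the 40 windows the share was at least 90%, and these windows held 543 of the 866 peaks. It was under 60% in 10 windows. Among these were 21 to 22 Mb of chromosome 14 with 3 of 16, 140 to 141 Mb of chromosome 6 with 7 of 16, 2 to 3 and 4 to 5 Mb of chromosome 20 with 7 of 15 and 8 of 17, and 21 to 22 Mb of chromosome 3 with 9 of 19. The window on chromosome 14 adjoins one in which 41 of 42 H3K4me3 peaks lay on H3K9me3.

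The clusters differed in how tightly they were packed. The 25 peaks of 17e all fell within 82.2 kb, between positions 89386624 and 89468853 of chromosome 17, and the 10 peaks of 17a (11 to 12 Mb) fell within 57.4 kb. Cluster 19b was the opposite, with 70 peaks over 2720 kb and at most 10 in any 100 kb. Clusters 2d, 16b and 14a had up to 28, 27 and 25 peaks in 100 kb. Over all clusters, gaps were measured from the end of one dual-mark peak to the start of the next in its window. Their median was 3089 bp, with quartiles of 712 and 13794 bp. Gaps under 5 kb were 485 of 827 (58.6%), near the 57.9% over all dual-mark peaks. That share was 61.0% in the crowded windows of chromosomes 1, 7 and 9 and 53.2% in uncrowded windows. In 49 of the 827 gaps the next peak began within 100 bp. This held for 136 of 2045 gaps over all dual-mark peaks and 39 of 547 in uncrowded windows. Among large clusters the median gap was smallest in 17e at 610 bp and 14a at 791 bp, and largest in 19b at 10871 bp.

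Position along the chromosome was uneven. In the first 3 Mb of their chromosome lay 127 of the peaks (14.7%), from clusters 2a, 12a, 16a, 19a and 20a, against 4.33% of all H3K4me3 peaks of the same chromosomes. Cluster 2a held 55 of the 127, and the share over all dual-mark peaks was not computed. The last 3 Mb, measured back from the last peak of the chromosome, held 25. H3K9me3 domains, taken as at least 3 neighbouring windows each over 5% covered, contained 11 of the 39 windows and 252 of the peaks (29.1%), against 24.6% of all dual-mark peaks and 7.97% of all H3K4me3 peaks of the same chromosomes. Single windows over 5% covered numbered 27 of the 39. H3K9me3 peaks covered 10.6% of the 39 windows and 2.40% of the 17 chromosomes. Cover ranged from 3.24 kb in the window from 21 to 22 Mb of chromosome 14 to 325 kb in 13a, with a median of 79.4 kb.

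Single dual-mark peaks were of ordinary size. Their median width was 867 bp, with quartiles of 672 and 1304 bp and a range of 300 to 7798 bp. Their median score was 69.3, with quartiles of 42.7 and 135. A score of 100 or more was reached by 303 of 866 (34.99%), against 22.2% of all H3K4me3 peaks on chromosomes. It was near the 34.6% of all dual-mark peaks, with 42.4% in the crowded windows of chromosomes 1, 7 and 9 and 28.2% in uncrowded windows. A width over 2 kb was reached by 78 (9.01%), against 9.33%. The crowded dual-mark peaks of chromosomes 1, 7 and 9, 694 in number, had medians of 85.6 for score and 948 bp for width. The 879 dual-mark peaks in uncrowded windows had 59.3 and 876 bp. The 3 classes overlapped over almost their whole range, and the order of their medians was not tested.

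Very high scores were found only on H3K9me3. On chromosomes, 93 H3K4me3 peaks (1.22%) had a score of 1000 or more, and all 93 were dual-mark peaks. Of these, 29 were crowded peaks of the clusters described here, 42 were crowded peaks of chromosomes 1, 7 and 9, and 22 were in uncrowded windows. As shares of their own class these were 3.35%, 6.05% and 2.50%, against 3.81% of all dual-mark peaks. The overlap is part of the rule, so these counts are a description.

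The 10 highest scores, with 5 of them tied at 3100, came from 4 clusters, with 5 in 17e, 2 each in 13a and 16b and 1 in 12b. The peak at 3350075 to 3357872 of chromosome 12, in 12b (3 to 4 Mb), was also the widest, at 7798 bp. It scored 3100 and its H3K9me3 partner, at 3349878 to 3357954, scored 3100 as well. In 17e the peaks at 89388883 to 89394441, 89457670 to 89462247 and 89453663 to 89457567 scored 3100, and those at 89437428 to 89442420 and 89407498 to 89411603 scored 3096 and 3017. In 13a the peaks at 33501965 to 33505643 and 33527635 to 33529484 of chromosome 13 scored 3100 and 2668. In 16b the peaks at 22114536 to 22117951 and 22072636 to 22075006 of chromosome 16 scored 3076 and 2724. Of the 10, only 22114536 to 22117951 had a partner with a score under 1000. That partner scored 904 and was 1586 bp wide, less than the 3416 bp of the H3K4me3 peak. With the other H3K9me3 peaks it touched, 81.7% of this H3K4me3 peak was covered. The widest peaks after that of 12b were 31345807 to 31352459 of chromosome 16 in 16d with 6653 bp, the peak of 17e at 89388883 with 5559 bp, 31305962 to 31311448 in 16d with 5487 bp and 47881926 to 47887332 of chromosome 17 in 17c with 5407 bp. Both peaks of 16d were wider than their H3K9me3 partners, which measured 2062 and 1429 bp, while that of 17c lay wholly inside a partner of 9565 bp. All H3K9me3 peaks together covered 76.5% and 49.8% of the peaks of 16d.

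The marks coincided well beyond the 1 bp of the rule, as they did over all dual-mark peaks. The median share of a peak's length under H3K9me3 was 100% in every class of dual-mark peaks. Of the summed length of the peaks, 972 kb, H3K9me3 peaks covered 92.8%, and 493 of 866 peaks (56.9%, 53.6 to 60.2%) had both edges inside their H3K9me3 partner. The share inside was 60.2% over all dual-mark peaks on chromosomes and 56.7% for those in uncrowded windows, and it was highest, at 68.7% (65.2 to 72.1%), in the crowded windows of chromosomes 1, 7 and 9. Another 102 peaks held their partner inside them, and 271 were shifted against it. The smallest overlaps were 56 and 65 bp, and only these 2 of the 866 were under 100 bp. Overlaps under 100 bp were not counted in the other classes of dual-mark peaks. The median distance between the centres of a pair was 156 bp, against 190 bp over all dual-mark peaks. It was 195.5 bp in uncrowded windows and 227.5 bp in the crowded windows of chromosomes 1, 7 and 9. The covered share of summed length was not computed for the other classes.

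Some pairs had nearly the same outline. Both edges differed by at most 100 bp, a tolerance chosen after the values were seen, in 185 of 866 pairs (21.4%, 18.8 to 24.2%). The share depended on this tolerance, with 9.70% at 50 bp and 35.8% at 200 bp. Over all dual-mark peaks the share was 18%, in uncrowded windows it was 15.5% (13.2 to 18.0%), and in the crowded windows of chromosomes 1, 7 and 9 it was reached by 118 of 694. Cluster 16b led with 41 of 73 pairs (56.2%), and so held 41 of the 185. The share without 16b was not computed. Among large clusters 16b was followed by 14b with 9 of 21, 14c with 17 of 42 and 17e with 9 of 25. In 16b the peak at 22072636 to 22075006 had its partner at 22072651 to 22074990, so the edges differed by 15 and 16 bp over 2371 bp. In 17e the peak at 89407498 to 89411603 had its partner at 89407465 to 89411593, with edges 33 and 10 bp apart. In 13a the peak at 33527635 to 33529484 had its partner at 33527601 to 33529446, with edges 34 and 38 bp apart.

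**Figure D3:**
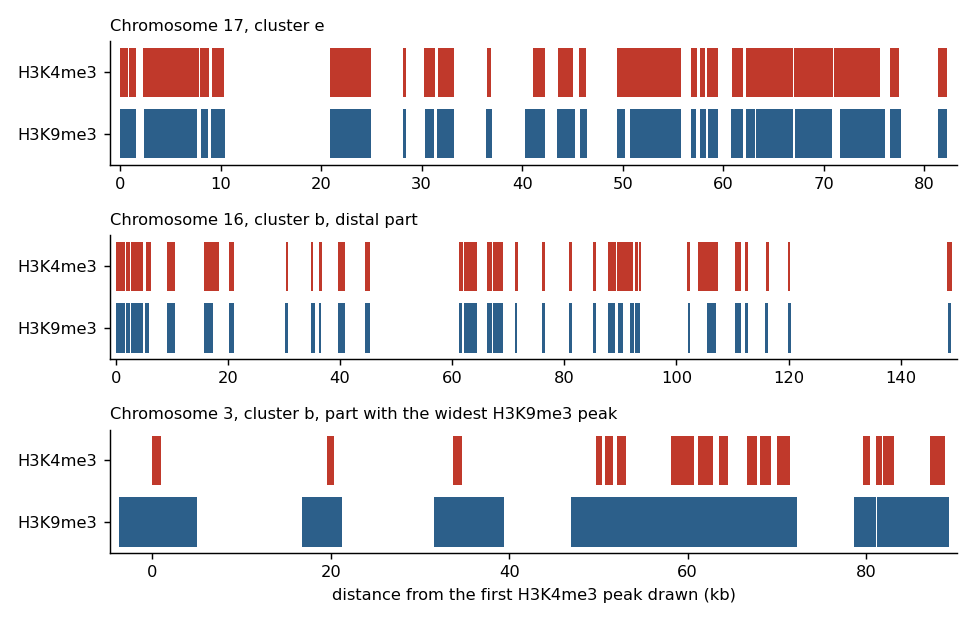
H3K4me3 dual-mark peaks (red, upper row) and the H3K9me3 peak that each overlaps most (blue, lower row) in cluster 17e, the distal part of 16b and the part of 3b around its widest H3K9me3 peak. The x axis is the distance in kb from the first H3K4me3 peak drawn. H3K4me3 peaks off H3K9me3 and other H3K9me3 peaks of these windows are not drawn, so every red peak has a blue one by the way of drawing. The outlines of some paired peaks are nearly the same in 17e and 16b. Both edges are within 100 bp in 9 of the 25 pairs of 17e and 41 of the 73 pairs of all 16b. In 3b 9 red peaks lie on 1 blue peak of 25365 bp.

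Other clusters had another shape, with several H3K4me3 peaks on 1 wide H3K9me3 peak. The 866 peaks lay on 773 H3K9me3 peaks, of which 676 carried 1 crowded dual-mark peak, 75 carried 2 and 22 carried 3 or more. The H3K9me3 peak with most was at 143887862 to 143913226 of chromosome 3, in 3b, 25365 bp wide with a score of 3100. It carried 9 H3K4me3 peaks, whose scores ran from 32.9 to 113 and whose widths ran from 715 to 2627 bp. The highest and widest of the 9 was at 143899062 to 143901688. Next were 194751341 to 194766152 of chromosome 2 with 8, and 47815990 to 47837506 of chromosome 17, 22046958 to 22066038 of chromosome 14 and 173360788 to 173374555 of chromosome 3 with 6 each, all with a score of 3100. Of the crowded dual-mark peaks, 89 (10.3%, 8.43 to 12.5%) had a partner shared by at least 3, against 9.31% of all dual-mark peaks, 4.21% (3.07 to 5.75%) in uncrowded windows and 14.6% (12.1 to 17.4%) in the crowded windows of chromosomes 1, 7 and 9.

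The shared length of a pair divided by the length of both together gives 1 measure of this contrast, 100% for identical outlines. Its median was 61.7% over the 866 pairs, with quartiles of 32.9 and 82.7%, and 55.5% in uncrowded windows. Among large clusters it was highest in 17e at 85.9%, 16b at 82.7% and 14c at 82.3%. It was lowest in 17c at 12.6%, 3b at 14.2%, 3c at 18.9%, 14a at 23.4% and 2d at 35.6%. In these 5 clusters the H3K9me3 partners were the widest of the large clusters, with medians of 5350, 4184, 2650, 3371 and 2241 bp, against 1077, 695 and 982 bp in the first 3. The H3K4me3 widths differed less, with medians of 1046, 1002, 841, 1221 and 902 bp in the low clusters and 1085, 746 and 904 bp in the high ones. A partner wider than the H3K4me3 peak lowers the measure by construction, and the shift between the peaks and the H3K4me3 width also enter it. Clusters 19b and 14c, with partners of like median width (968 and 982 bp), stood at 65.8% and 82.3%.

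**Figure D4:**
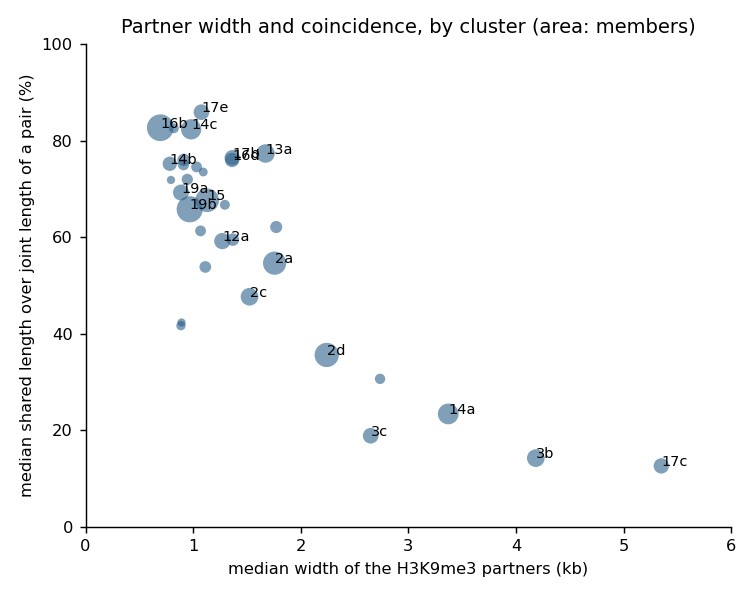
Median shared length over joint length of the pairs of a cluster (y axis, percent) against the median width of its H3K9me3 partners (x axis, kb), for 33 clusters, with point area in proportion to the number of dual-mark peaks and names on clusters with 20 or more. Cluster 17e lies at 85.9% and 1077 bp, and 17c at 12.6% and 5350 bp.

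The H3K9me3 partners ranked high in their own list, as did the partners of all dual-mark peaks. The median score was 268 for the partners of crowded peaks, with quartiles of 105 and 719, and 290 for those of all dual-mark peaks. The median of the H3K9me3 list was 60.4, and 88.9% of the 773 partners of crowded peaks were at or above it. That share was not computed for all dual-mark peaks. Of the H3K4me3 peaks themselves, 68.0% were at or above the median of their list, 49.5. A score of at least 3100 was reached by 26 of the 773 partners, 24 of them at exactly that value. In the whole H3K9me3 list it was reached by 106 of 49591 peaks. The partners of other dual-mark peaks were not counted for this. The highest-scoring partner, with 3217, spanned 33474734 to 33479730 on chromosome 13. The next, with 3206, spanned 195107765 to 195110915 on chromosome 2, and each lay under 1 dual-mark peak. The widest of those tied at 3100 were 173090725 to 173116985 of chromosome 3 with 26261 bp, the 9-peak partner of 3b and 47815990 to 47837506 of chromosome 17 with 21517 bp. The median partner score was 463 in the crowded windows of chromosomes 1, 7 and 9 and 223 in uncrowded windows.

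Most H3K9me3 peaks of the same windows carried no H3K4me3 peak. Of 3113 H3K9me3 peaks there, 773 (24.8%) touched a crowded dual-mark peak, and these made up 34.7% of the summed H3K9me3 length. Median score and width were 268 and 1196 bp for those touching, and 68.4 and 852 bp for the other 2340. Wider peaks meet other peaks more often by their width alone. The 169 H3K4me3 peaks off H3K9me3 in these windows scored 44.5 in the median and at most 244, with a median width of 849 bp. The nearest lay 9 bp from an H3K9me3 peak, 41 lay within 1 kb, and 84 lay more than 10 kb away.

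The relation between the scores of paired peaks differed from cluster to cluster and was weak over all pairs. Over all 866 pairs Spearman's rho was 0.28, given as a description across peaks of the same libraries. In these pairs the H3K4me3 score also rose with width (rho 0.61). Between paired scores rho was 0.35 over all dual-mark peaks. It was 0.36 in the crowded windows of chromosomes 1, 7 and 9 and 0.36 in uncrowded windows. In the 18 large clusters it ran from 0.06 to 0.94 with a median of 0.53. In the 15 small clusters it ran from -0.75 to 0.88 with a median of 0.44, and it was negative in 5 of them, 6c, 5, 2b, 17d and 20b. It was 0.94 over the 25 pairs of 17e, 0.83 over the 35 of 13a and 0.79 over the 42 of 14c. It was 0.06 over the 32 pairs of 3b, where 9 of the pairs share 1 partner score. The clusters also lay at different levels. In 17e the H3K4me3 scores ran from 78.2 to 3100 with a median of 482, the highest of all 33 clusters. In 13a they ran from 30.7 to 3100 with a median of 164, and the partners had a median of 1222. In 3b they ran from 31.8 to 113 with a median of 51.3, and the partners had a median of 836. In 14a they ran from 32.4 to 321 with a median of 57.6, and the partners had a median of 591.

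**Figure D5:**
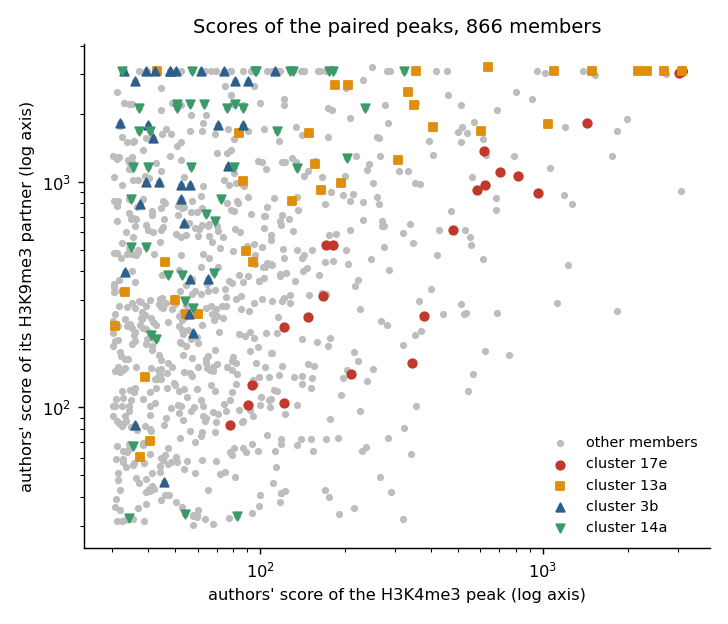
Authors' score of each of the 866 crowded dual-mark H3K4me3 peaks (x axis, log scale) against the score of its H3K9me3 partner (y axis, log scale), with 4 clusters in colour. Points of 17e rise along a diagonal up to 3100 in both lists, while those of 3b stay at or below 113 on the x axis.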

How the data were processed

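Of the 3 libraries, the 2 deposited peak lists (H3K4me3 and H3K9me3) were used; for the library without antibody no peak list was used here. The submitters' processing notes name Bowtie 1.2, bcl2fastq, FastQC and build rn6, with no roles. Peak names in the deposited files carry the name of the caller MACS, whose version and settings, like the handling of multi-mapping and duplicate reads, are not stated in the sources used here. Each peak has the authors' score, deposited without a header, and the files hold no read counts, so depth is unknown.

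Overlap was at least 1 bp. Windows were 1 Mb by midpoint, and starts are counted from 1. The partner of a peak is the H3K9me3 peak it overlaps most. Measures of single pairs, the rank correlations and the plot of paired scores use this partner. Summaries of partner scores and widths are over all H3K9me3 peaks touched. Intervals of shares are Wilson intervals. The rule was tested on simulated lists with planted peaks. Named are all chromosomes and clusters of at least 20 peaks, the 10 highest scores, the 5 widest peaks and the 5 highest partners. Other regions were named after their values were seen. The peaks, lists and measures were chosen with earlier results of these data known. No genome or annotation of rn6 was used, so no gene or sequence is given. Alternatives changed the crowding minimum, window offset, overlap, score minimum and chromosomes. The work used Python 3.11.15 with matplotlib 3.10.9, scipy 1.17.1, pandas 2.3.3 and numpy 2.4.6.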

Additional observations from a re-analysis of the deposited data

How the results depend on the processing

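Over 12 alternatives, 95 of 122 recomputed values stayed within their interval (counts within 1.5 times) and 27 moved. For H3K9me3 cover the value is pooled over windows, while its interval, 5.01 to 11.4%, is that of the median window. The median percent of peak length under H3K9me3 was 100, with an interval of 100 to 100, since most peaks were wholly covered. That it stayed at 100 therefore says little. For the moved values the cause was not tested beyond the smaller or larger set each alternative takes. With 10 midpoints there were 60 windows and a share on H3K9me3 of 74.6%. With 20 midpoints there were 25 windows, a share of 89.8%, a partner score of 299, H3K9me3 cover of 12.55% and 60.5% of peaks inside their partner. Windows shifted by 0.5 Mb gave a share of 85.6%. With both lists at or above their median score, there were 390 peaks in 17 windows, with a share of 89.2%, a median score of 112, a width of 1061 bp, a partner score of 446, 27.4% matching edges and 69.3% shared over joint length. With H3K9me3 peaks alone at or above the median, the share was 75.1%, the partner score 314 and 60.8% lay inside. Without chromosome 2 the partner score was 226 and 51.9% lay inside. No result moved without chromosome 13 or with an overlap of 0.5 of the smaller peak.

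Chosen after seeing the data, leaving out the 5 clusters of widest partners (3b, 3c, 5, 14a, 17c) gave a median score of 77.6, 51.1% inside, 25.1% matching edges and 67.5% shared over joint length, and leaving out 17e moved nothing. Edges within 50 and 200 bp matched in 9.70% and 35.8% of pairs. No paired analysis was possible because each group has 1 library and no result comes from a test. Depth is unknown, so windows without peaks may lie under the limit of the caller.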

Other observations

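Sequences not placed on a chromosome also held groups of dual-mark peaks. Of 37 H3K4me3 peaks on 15 such sequences, 34 lay on H3K9me3 (91.9%, Wilson interval 78.7 to 97.2%). The sequence with most held 10 within 52.8 kb, 9 of them on H3K9me3, with scores from 53.0 to 1699.5. The next held 7 within 50.3 kb, all 7 on H3K9me3, with scores from 66.6 to 376. These sequences were chosen after their values were seen, and the rule for crowded windows does not apply to them.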
